A study of Mus musculus with 32 samples.

Results

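The 10 genes described here encode the subunits of the transcription factor NF-kB (Nfkb1, Nfkb2, Rel, Rela and Relb) and proteins that regulate it. Of these, Nfkbia, Nfkbib, Nfkbie and Tnfaip3 hold it in check, and Nfkbiz is a nuclear IkB protein that can act as a co-activator. They were taken by gene symbol from both deposited tables, and the estimated counts of their transcripts were summed per gene. All 10 were listed in both tables, as 28 of 34865 transcripts and 10 of 13377 genes for females, and as 29 of 28345 transcripts and 10 of 11999 genes for males. The lowest count of any of them in any library was 140 for females and 72 for males, so none was near the limit of detection. The study concerned spinal cord microglia that return after depletion, and RNA was sequenced from microglia isolated by fluorescence-activated sorting from mice at day 14. Repopulated libraries came from mice labelled as depleted and resident libraries from mice labelled as not depleted, each with a fracture or without one. There were 3 repopulated and 4 resident female libraries without fracture, and 4 repopulated and 4 resident with fracture. There were 2 repopulated and 3 resident male libraries without fracture, and 7 repopulated and 5 resident with fracture.

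Every library carries the genotype label Cx3Cr1-Cre;Rosa26-iDTR. In such mice the Cre recombinase is driven by the Cx3cr1 promoter and is made active by tamoxifen, which turns on a receptor for diphtheria toxin. The toxin then removes cells that carry the receptor, and Cx3cr1 is also used by some monocytes and tissue macrophages, so the line is not restricted to microglia. The short descriptions call the resident libraries Wt or WT and the repopulated ones Dt in females and iDTR in males, although the genotype label is the same in all. Genotype, exposure to the toxin and repopulation can therefore not be told apart here. An outside company prepared the female RNA and libraries by an ultra-low input protocol, while SMART-Seq v4 and Nextera DNA Flex were used for males, so sex and library method are the same split and the tables are treated apart. The labels do not say that each library came from a separate animal, so p-values measure the spread between these libraries, which may be technical.

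NF-kB proteins act as pairs. In a resting cell the pairs are kept in the cytoplasm by inhibitors of the IkB family. Signals from toll-like receptors, interleukin-1 or tumour necrosis factor lead to the destruction of these inhibitors, and the freed pairs, often Rela with the short form of Nfkb1, enter the nucleus and switch on inflammatory genes. A slower, non-canonical branch, started by receptors such as Cd40, works through processing of the Nfkb2 precursor and its partner Relb. The genes for Nfkbia and Tnfaip3 are themselves turned on by NF-kB and shut the signal down again, and Nfkb2, Relb, Nfkbie and Nfkbiz are known targets too. In microglia the pathway is a main route to cytokine and chemokine production.

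The promoter sequences show the binding motif that ties several of these genes to the factor they encode or restrain. RefSeq promoter windows (build GRCm38.p6) were at hand for 7 of the 10 genes, and the 250 bases before the start were searched on both strands for the kB consensus, a motif of 10 bases. The consensus was found before at least 1 start of 5 of the 7 genes, namely Nfkbia, Nfkb2, Tnfaip3, Rel and Nfkbie, and not before those of Rela and Nfkbib. Of all 27025 genes in the table, 8.23% have it before at least 1 start. The sequences below were chosen because their genes are those followed in the results or because they hold a match, and capitals mark the bases that match, read 5′ to 3′ on the strand of the gene.
Nfkbia, chr12:55492648-55492797, minus strand: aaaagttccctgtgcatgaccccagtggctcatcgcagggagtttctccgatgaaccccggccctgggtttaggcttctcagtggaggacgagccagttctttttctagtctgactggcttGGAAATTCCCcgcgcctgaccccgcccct
Nfkb2, chr19:46304688-46304717, plus strand: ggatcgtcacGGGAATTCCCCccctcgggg
Tnfaip3, chr10:19015411-19015440, minus strand: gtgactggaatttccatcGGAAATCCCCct
Rel, chr11:23771042-23771071, minus strand: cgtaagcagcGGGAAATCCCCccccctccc
Nfkbie, chr17:45555584-45555613, plus strand: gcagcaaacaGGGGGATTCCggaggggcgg
Counted from the start, the first base of the match stands at -29 in Nfkbia, -12 in Tnfaip3 and -106 in Nfkbie. In Nfkb2 it stands at -39 and in Rel at -92, and in both a further match on the minus strand begins 1 base later, which is why 11 bases are in capitals. Nfkb2 has another match at -11, Tnfaip3 another at -125, and 2 further annotated starts of Nfkb2 have matches at -236 and -225. A match describes letters only, and no binding was measured in this study. Nfkb1, Relb and Nfkbiz have no entry.

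Library totals were 16438827 to 18654165 estimated counts in females and 5722993 to 33697535 in males, and levels below are in CPM, counts scaled to the TMM-normalised size of the library. The 12 microglial markers summed to 46551 to 51899 CPM in female repopulated and 45596 to 56691 CPM in female resident libraries, and to 51336 to 61349 CPM in male repopulated and 58485 to 66411 CPM in male resident libraries. In the mean of both fracture states 5 of the 12 fell and 1 rose in each table. Of all genes 4.09% fell in females and 5.68% in males. P2ry12, a purine receptor of microglia, was at -0.62 ± 0.11 in females (edgeR adjusted p = 0.00266) and -0.81 ± 0.09 in males (adjusted p = 2.6e-06). Markers of circulating macrophages were higher in repopulated libraries: 10 of 15 were called in females and 9 of 14 in males in the mean of both fracture states, none lower, where 4.43% and 7.14% of all genes were higher. Their summed level was 7488 to 17515 CPM in female repopulated and 1627 to 5865 CPM in female resident libraries. In males it was 4435 to 15868 CPM in repopulated and 1743 to 3481 CPM in resident libraries, so the groups did not overlap in either table. Without Apoe the sum was 3065 to 5053 CPM in female repopulated and 1096 to 2919 CPM in female resident libraries, and 1650 to 4990 CPM in male repopulated and 950 to 2186 CPM in male resident libraries, which overlapped. The monocyte genes Ccr2 and Ly6c2 were listed in neither table, and no T or NK cell marker was listed. Of the 5 listed monocyte genes 1 rose in females, Itgal (2.08 ± 0.33, edgeR adjusted p = 0.00124), and 0 in males. In males 2 of the 5 had an unadjusted p below 0.05, beside 2874 of all 11999 genes. Of the listed markers of border macrophages 2 of 4 rose in females, Ms4a7 and Mrc1, and 2 of 5 in males, Ms4a7 and Siglec1. The listed border macrophage markers summed to 36.3 to 111 CPM in female repopulated and 7.07 to 46.3 CPM in female resident libraries, and to 17.9 to 93.1 CPM in male repopulated and 3.21 to 14.5 CPM in male resident libraries. All 3 listed B cell genes, Ighm, Ighd and Cd79b, fell in both tables in the mean. In bulk libraries fewer cells of a type and less RNA per cell cannot be told apart. The part of these other cells in the results below was not tested.

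Some libraries stood apart. Female repopulated library 1 and resident libraries 1 and 2, all without fracture, were low in Jun, an immediate-early gene. They had 7.44 CPM in the repopulated and 24 and 46.6 CPM in the resident ones. Repopulated library 2 without fracture had 43.8 CPM and the other female libraries 88.9 to 148 CPM. Jun alone therefore does not single out the 3. These 3 libraries were also the lowest in Tnfaip3, at 33.4 to 41.7 CPM against at least 76.7 CPM elsewhere. They were among the lowest in Relb. The 3 were thus set apart partly by values of the 10 genes themselves, so fits without them are no independent test. Male repopulated fracture library 1 had 324 CPM of Fos, 739 CPM of Egr1 and 839 CPM of Jun, genes that respond within minutes to stimulation and to tissue dissociation. The other male libraries had 0.0357 to 20.8 CPM of Fos. Calls of the 10 genes that these libraries decide are given with and without them, and other genes of the pathway were tested with all libraries only, so their female means without fracture include these 3.

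Repopulated microglia of both tables held more Nfkb2, Nfkbia and Nfkbiz RNA than resident ones in the mean of both fracture states, and repopulated male microglia also held more Relb and Tnfaip3 and less Rela and Nfkb1. In females, 2 of the 10 genes passed the test (edgeR quasi-likelihood test, Benjamini-Hochberg adjusted p below 0.05 over all genes) without fracture, where 2.53% of all genes did. With fracture 1 of 10 passed, against 2.35% of all genes. In each direction the shares of all genes were 1.56% higher and 0.964% lower without fracture and 1.27% higher and 1.08% lower with it. In the mean of both fracture states, which uses the same libraries again, 3 of 10 passed, against 8.52%. In males, 5 of 10 passed without fracture against 7.42% of all genes, 3 of 10 with fracture against 4.91%, and 7 of 10 in the mean against 12.8%. All calls in females were higher in repopulated microglia. In males 4 were higher and 1 lower without fracture, 3 were higher with fracture, and 5 were higher and 2 lower in the mean. The median log2 fold change over the 10 genes in the mean was 0.26 in females and 0.33 in males, beside -0.01 and -0.02 over all genes. The 10 genes were chosen with earlier results of these data known, so these counts are no independent test.

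**Figure D1:**
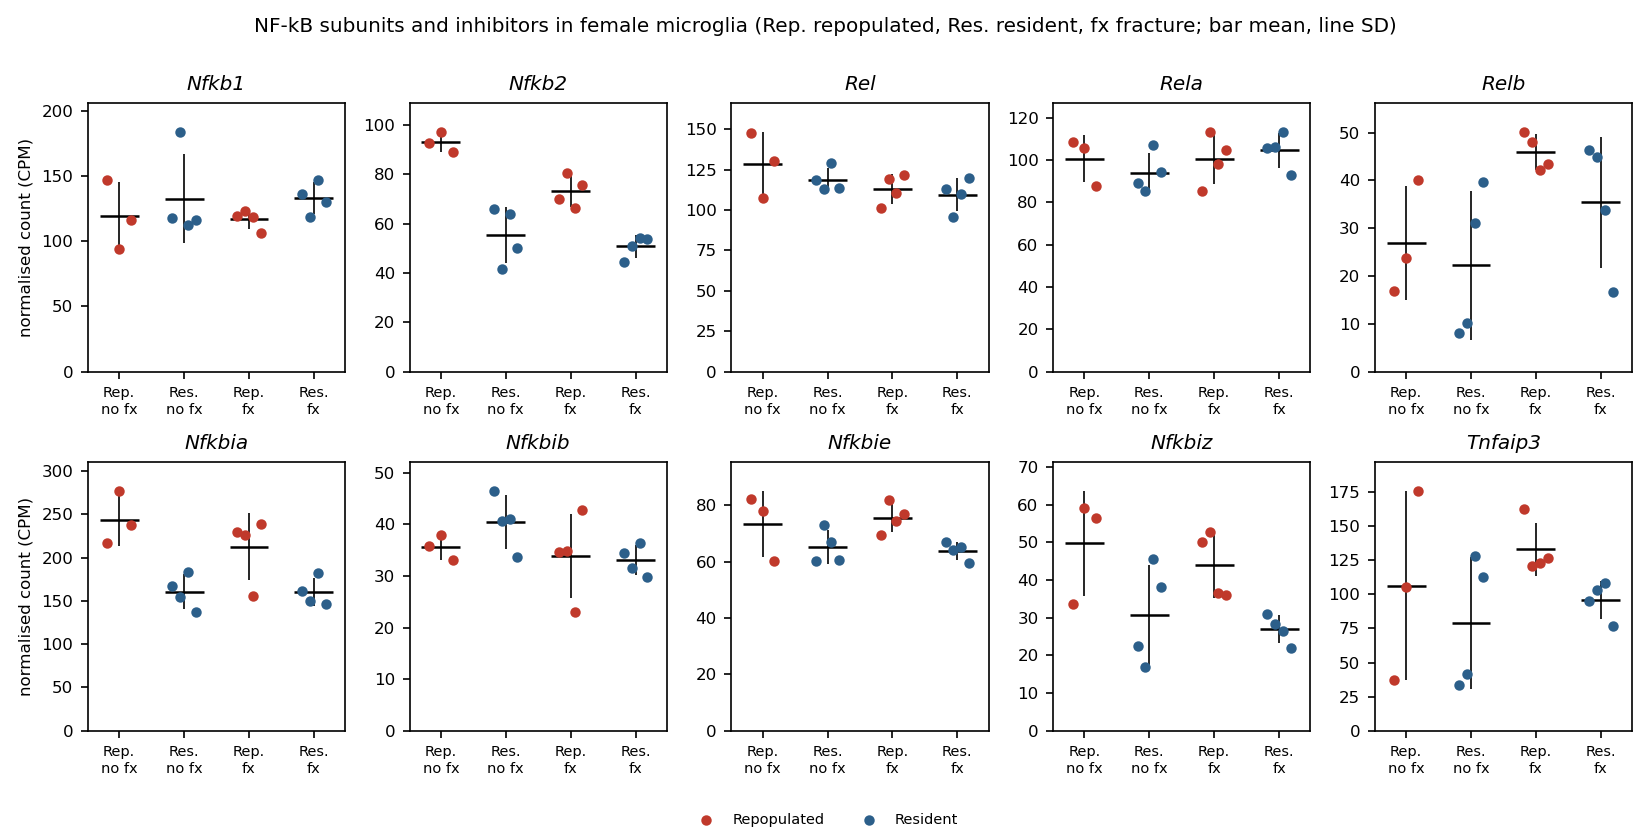
Normalised count (CPM) of each gene in every female library, with repopulated (Rep.) left of resident (Res.) for the libraries without and with fracture (fx); the horizontal bar is the mean and the vertical line the SD. Nfkb2 is the gene whose 7 repopulated libraries, at 66.4 to 97.2 CPM, all lie above the 8 resident ones, at 41.8 to 65.8 CPM.

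Nfkb2, the precursor of the non-canonical subunit (chr19:46304320-46312385, plus strand, GRCm38), was the most regular of the subunits in females. Without fracture it had 92.8, 97.2 and 89.0 CPM in repopulated libraries, against 65.8, 41.8, 63.7 and 49.99 CPM in resident ones. With fracture it had 69.7, 80.4, 66.4 and 75.5 CPM in repopulated libraries, against 44.3, 50.8, 54.3 and 53.8 CPM in resident ones. The 2 groups did not overlap in either state. It rose by 0.75 ± 0.14 (log2 fold change ± SE, 1.68-fold, adjusted p = 0.0134) without fracture, by 0.52 ± 0.13 (adjusted p = 0.0456) with fracture, and by 0.64 ± 0.09 (adjusted p = 0.00071) in the mean by the same edgeR test. Over both states together Nfkb2 alone among the 10 genes had no overlap between repopulated and resident libraries, where 2.12% of all genes did. With 1 library left out at a time, the call with fracture was kept without resident library 1, 2 or 3 of the state without fracture, and was lost without any 1 of the other 12 libraries (adjusted p 0.0522 to 0.141 in edgeR). It was also lost with library totals in place of TMM factors (edgeR adjusted p = 0.0826) and with a term for replicate number in the fit. The call without fracture was lost without repopulated library 1 (adjusted p = 0.0525) and without the 3 libraries that stood apart together (0.72 ± 0.15, adjusted p = 0.145), and with only the 2 groups in the fit (adjusted p = 0.163), fits that called 1 and 0 of all genes. The mean of both states remained called in all 24 alternatives, among them each library left out in turn.

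In males Nfkb2 had 91.0 and 68.1 CPM in repopulated libraries without fracture, against 54.8, 36.6 and 42.8 CPM in resident ones. With fracture the 7 repopulated libraries had a lowest value of 44.1, a median of 66.9 and a highest value of 77.4 CPM, against 41.8, 47.9, 52.5, 52.0 and 58.8 CPM in the resident ones. The groups did not overlap without fracture, and with fracture 5 of 7 repopulated libraries lay above all resident ones. Nfkb2 rose by 0.82 ± 0.21 (adjusted p = 0.0174) without fracture and by 0.59 ± 0.13 (adjusted p = 0.00237) in the mean, and with fracture the difference was 0.36 ± 0.14 (edgeR adjusted p = 0.161). The lowest repopulated fracture value belongs to library 1, the one with high Fos, and without it the difference was 0.44 ± 0.12 and passed (adjusted p = 0.0396). The call without fracture was lost without resident library 2 or 3 or repopulated library 1 (adjusted p = 0.0724, 0.0544 and 0.222), a group of 2 then resting on 1 library assumed to vary like the others.

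Relb, the partner of processed Nfkb2, is at chr7:19606217-19629438, minus strand. In males it had 75.8 and 79.5 CPM in repopulated libraries without fracture, against 36.1, 39.8 and 37.5 CPM in resident ones. With fracture the repopulated libraries had a lowest value of 50.2, a median of 54.5 and a highest value of 57.9 CPM, against 33.4, 43.9, 36.2, 53.9 and 39.0 CPM in resident ones. The repopulated libraries without fracture lay well clear of all others, and with fracture 1 resident library, library 4, reached into the repopulated range. Relb rose by 1.04 ± 0.17 (2.06-fold, adjusted p = 0.00045) without fracture, by 0.40 ± 0.11 (adjusted p = 0.0346) with fracture, and by 0.72 ± 0.10 (adjusted p = 3.2e-05) in the mean. The call without fracture held in all 28 alternatives, while the call with fracture was lost without resident library 1, 2, 3 or 5 or repopulated library 3 or 6 (adjusted p 0.0566 to 0.105 in edgeR).

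In females Relb had 16.9, 23.8 and 40.1 CPM in repopulated libraries without fracture, against 8.17, 10.2, 31.1 and 39.6 CPM in resident ones. With fracture it had 50.2, 48.0, 42.2 and 43.4 CPM in repopulated libraries, against 46.3, 45.0, 33.8 and 16.6 CPM in resident ones. Values within a group differed up to several-fold, and the groups overlapped in both states. The difference was 0.27 ± 0.51 (adjusted p = 0.873) without fracture and 0.38 ± 0.47 (edgeR adjusted p = 0.855) with fracture, so a change of the size seen in males was not detectable at this spread. Without the 3 libraries that stood apart it was -0.14 ± 0.39 (adjusted p = 0.955) without fracture and 0.36 ± 0.28 (adjusted p = 0.61) with fracture.

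**Figure D2:**
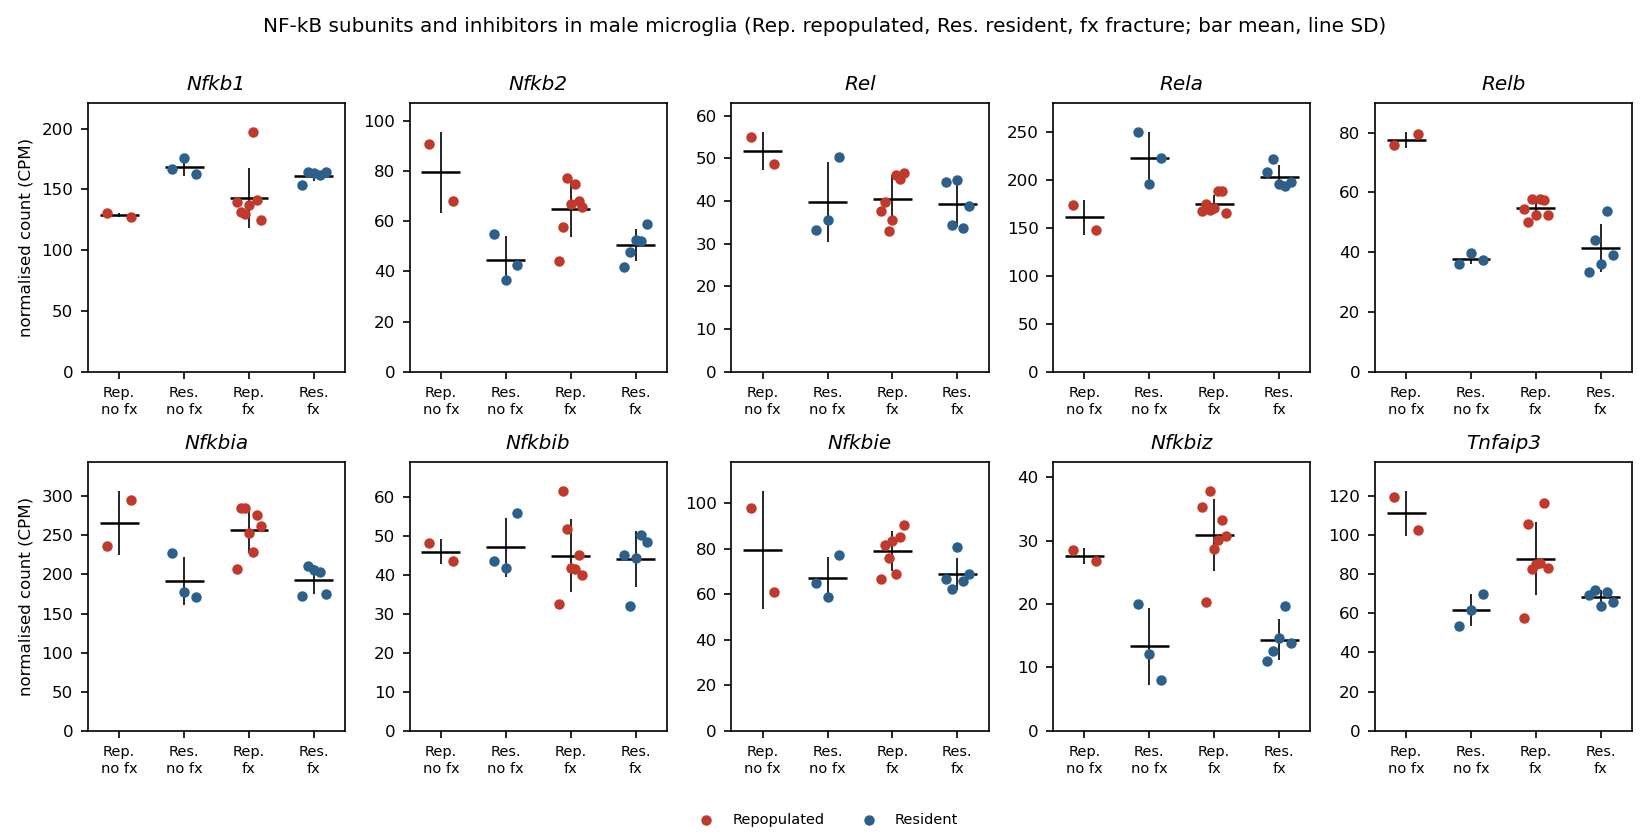
Normalised count (CPM) of each gene in every male library, with repopulated (Rep.) left of resident (Res.) for the libraries without and with fracture (fx); the horizontal bar is the mean and the vertical line the SD. Rela lies lower in all 9 repopulated libraries (148 to 188 CPM) than in the 8 resident ones (194 to 250 CPM), and Nfkbiz lies higher (20.4 to 37.9 CPM against 7.94 to 19.9 CPM).

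Rela, the main activating subunit of the canonical branch (chr19:5637483-5648130, plus strand), moved the other way in males. Without fracture it had 174 and 148 CPM in repopulated libraries, against 250, 195 and 223 CPM in resident ones. With fracture the repopulated libraries had a lowest value of 165, a median of 170 and a highest value of 188 CPM, against 208, 222, 196, 194 and 197 CPM in resident ones. Each repopulated library lay below each resident one in both states together, as was the case, in either direction, for 2.4% of all genes and for 2 of the 10, Rela and Nfkbiz. Rela fell by 0.47 on the log2 scale (-0.47 ± 0.11, adjusted p = 0.0106) without fracture and by 0.35 (-0.35 ± 0.07, adjusted p = 0.000957) in the mean, and with fracture the difference was -0.22 ± 0.07 (edgeR adjusted p = 0.0832). The call without fracture was lost without resident library 1 (adjusted p = 0.0551) or repopulated library 2 (adjusted p = 0.226) and with only the 2 groups in the fit (adjusted p = 0.124), and the call in the mean held in all 27 alternatives. With library totals in place of TMM factors, which moves the median of all genes by -0.05, the difference with fracture passed (-0.27 ± 0.07, adjusted p = 0.0309).

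In females Rela had 85.5 to 113 CPM in repopulated and 85.2 to 113 CPM in resident libraries. The groups covered the same range, with a difference of 0.02 ± 0.08 (edgeR adjusted p = 0.9295) in the mean.

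Nfkb1, which encodes the most common partner of Rela (chr3:135584655-135691547, minus strand), had 94 to 147 CPM in female repopulated and 112 to 184 CPM in female resident libraries, and the difference of -0.17 ± 0.11 in the mean did not pass (edgeR adjusted p = 0.452). In males it had 130 and 128 CPM in repopulated libraries without fracture, against 166, 176 and 163 CPM in resident ones. With fracture 6 of the 7 repopulated libraries lay between 125 and 142 CPM and library 5 at 198 CPM, against 153 to 164 CPM in resident ones. Nfkb1 fell by 0.28 on the log2 scale in the mean (-0.28 ± 0.08, edgeR adjusted p = 0.0333). That call was lost without any 1 of 11 of the 17 libraries, namely resident libraries 1, 2 and 3 without and 2, 3, 4 and 5 with fracture, and repopulated libraries 1 and 2 without and 2 and 7 with fracture (adjusted p 0.0503 to 0.14). Without repopulated fracture library 5 the difference passed within each state, at -0.36 ± 0.10 (adjusted p = 0.0207) without and -0.26 ± 0.06 (adjusted p = 0.0185) with fracture. Library 5 was picked out by its own Nfkb1 value, which runs against the difference, so these fits add no support for it.

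Rel, a subunit typical of blood and immune cells (chr11:23736847-23770970, minus strand), passed in no comparison. It had 101.4 to 148 CPM in female repopulated and 95.7 to 129 CPM in female resident libraries, and 32.9 to 55 CPM in male repopulated and 33.3 to 50.4 CPM in male resident libraries. The differences in the mean were 0.08 ± 0.07 in females and 0.21 ± 0.12 in males.

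**Figure D3:**
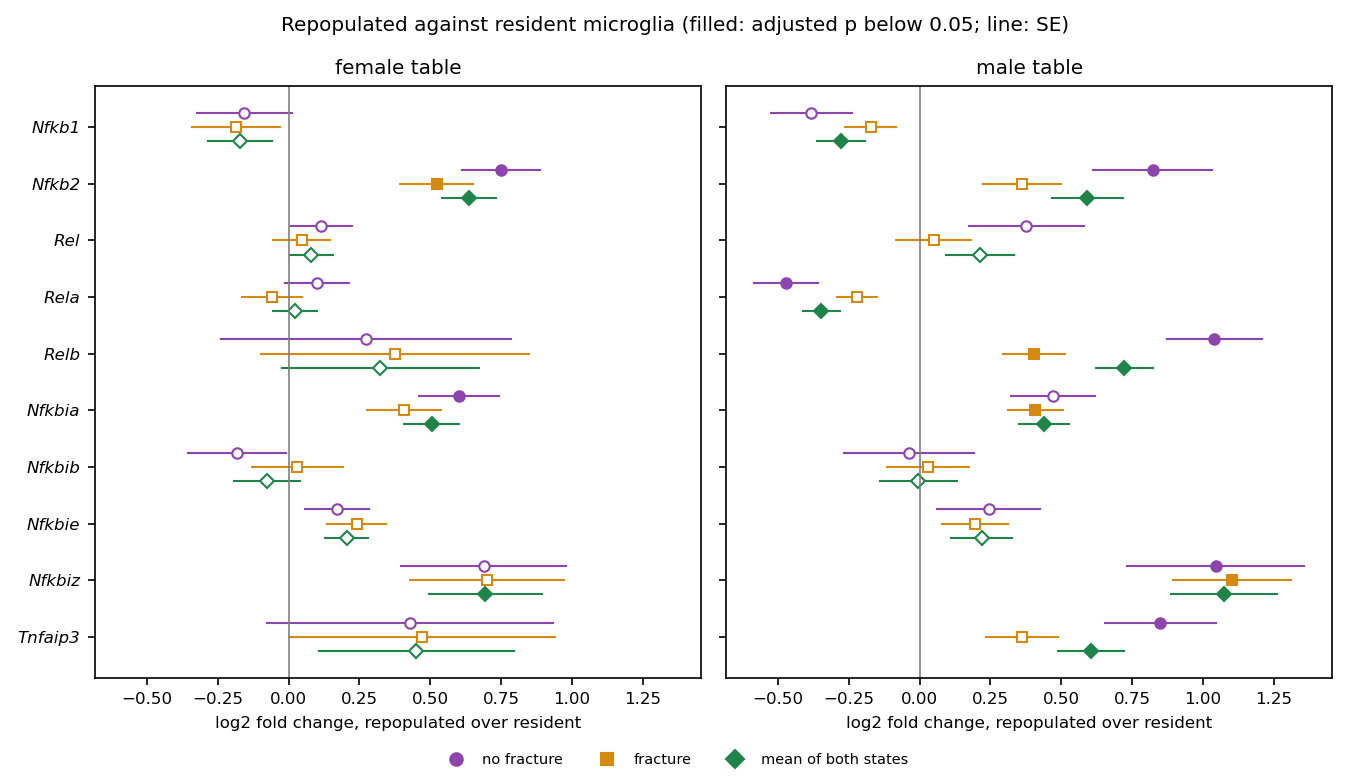
Log2 fold change of repopulated over resident microglia for the 10 genes without fracture, with fracture and in the mean of both, for females (left) and males (right); lines are the SE and filled symbols have an adjusted p below 0.05. Nfkb2 is filled in 3 of 3 female comparisons, and Rela and Nfkb1 lie left of 0 in the male table.

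Among the inhibitors, Nfkbia, the IkB alpha protein that pulls NF-kB back out of the nucleus (chr12:55489410-55492647, minus strand), was higher in repopulated microglia of both tables. In females without fracture it had 216, 277 and 238 CPM in repopulated libraries, against 167, 155, 184 and 137 CPM in resident ones. With fracture it had 230, 226, 155 and 238 CPM in repopulated libraries, against 162, 150, 182 and 146 CPM in resident ones. The groups did not overlap without fracture, and with fracture repopulated library 3 lay among the resident ones. Nfkbia rose by 0.60 ± 0.14 (1.52-fold, adjusted p = 0.035) without fracture and by 0.51 ± 0.10 (adjusted p = 0.00352) in the mean, and with fracture the difference was 0.41 ± 0.13 (edgeR adjusted p = 0.121). Without that 1 library the difference with fracture was 0.53 ± 0.11 and passed (adjusted p = 0.0277). That library was picked out by its own Nfkbia value, so this fit adds no support. The call without fracture was lost without resident library 1, 2 or 4 or repopulated library 1, 2 or 3 (adjusted p 0.0598 to 0.136). Without the 3 libraries that stood apart it was lost too (0.69 ± 0.20, adjusted p = 0.256), in a fit that called 1 of all genes, and likewise with only the 2 groups in the fit (adjusted p = 0.155) and with library totals (adjusted p = 0.0539). The call in the mean held in all 24 alternatives.

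In males Nfkbia had 237 and 295 CPM in repopulated libraries without fracture, against 227, 177 and 171 CPM in resident ones. With fracture the repopulated libraries had a lowest value of 207, a median of 262 and a highest value of 285 CPM, against 172, 211, 205, 203 and 175 CPM in resident ones. The groups did not overlap without fracture, and with fracture 6 of 7 repopulated libraries lay above all resident ones, the exception being the high-Fos library 1. Nfkbia rose by 0.41 ± 0.10 (edgeR adjusted p = 0.0136) with fracture and by 0.44 ± 0.09 (adjusted p = 0.00136) in the mean. With library totals 2 of the 10 genes were called higher with fracture, and with only the 2 groups in the fit also 2. Relb, Nfkbia and Nfkbiz, the 3 called with fracture otherwise, thus did not all keep their call. Without fracture the Nfkbia difference of 0.47 ± 0.15 just missed (edgeR adjusted p = 0.0559). It passed in the DESeq2 test (adjusted p = 0.0234), and in edgeR without resident library 1 or repopulated library 1 without fracture, or without repopulated library 1 or 5 with fracture (adjusted p 0.0173 to 0.0491).

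Nfkbiz, a nuclear IkB protein that acts as a co-activator at a later wave of NF-kB genes (chr16:55811375-55838899, minus strand), had the largest fold changes of the 10 genes in the mean of both states in males. Without fracture it had 28.5 and 26.7 CPM in repopulated libraries, against 19.9, 12.1 and 7.94 CPM in resident ones. With fracture the repopulated libraries had a lowest value of 20.4, a median of 30.7 and a highest value of 37.9 CPM, against 11.001, 12.6, 14.7, 19.7 and 13.9 CPM in resident ones. All 9 repopulated libraries lay above all 8 resident ones. Nfkbiz rose by 1.05 ± 0.31 (2.06-fold, adjusted p = 0.0445) without fracture, by 1.10 ± 0.21 (2.15-fold, adjusted p = 0.00283) with fracture and by 1.07 ± 0.19 (adjusted p = 0.000361) in the mean by edgeR. The call without fracture was lost on leaving out any 1 of 10 libraries, namely resident libraries 2 and 3 without and 2, 3 and 5 with fracture, and repopulated libraries 1 and 2 without and 4, 6 and 7 with fracture (adjusted p 0.0504 to 0.169). The other calls of Nfkbiz held without any 1 library.

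In females Nfkbiz had 33.6, 59.1 and 56.3 CPM in repopulated libraries without fracture, against 22.6, 17.0, 45.5 and 38.2 CPM in resident ones. With fracture it had 49.96, 52.8, 36.6 and 36.1 CPM in repopulated libraries, against 31.1, 28.3, 26.6 and 22.1 CPM in resident ones. The groups overlapped without fracture and not with it. Nfkbiz rose by 0.69 ± 0.20 in the mean (adjusted p = 0.0424), and within each state the difference of 0.69 ± 0.29 without and 0.70 ± 0.27 with fracture did not pass (edgeR adjusted p = 0.267 and 0.237). The call in the mean was lost without resident library 1 without fracture, resident library 1, 2, 3 or 4 with fracture, repopulated library 2 or 3 without fracture or repopulated library 1 or 2 with fracture (adjusted p 0.0559 to 0.114). That call was also lost with library totals in place of TMM factors and with a term for replicate number in the fit. Without the 3 libraries that stood apart Nfkbiz passed with fracture (0.69 ± 0.15, edgeR adjusted p = 0.0229).

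Tnfaip3, also known as A20, edits ubiquitin chains upstream of the kinase that destroys the inhibitors (chr10:19000910-19015657, minus strand). In males it had 119 and 103 CPM in repopulated libraries without fracture, against 53.5, 61.5 and 69.6 CPM in resident ones. With fracture the repopulated libraries had a lowest value of 57.5, a median of 85.1 and a highest value of 116 CPM, against 69.5, 71.9, 63.6, 71.02 and 65.7 CPM in resident ones. Here too the high-Fos library 1 was the lowest of its group, and the other 6 lay above all resident libraries. Tnfaip3 rose by 0.85 ± 0.20 (1.80-fold, adjusted p = 0.00813) without fracture and by 0.61 ± 0.12 (adjusted p = 0.000968) in the mean, and with fracture the difference was 0.36 ± 0.13 (edgeR adjusted p = 0.1225). Without library 1 it was 0.44 ± 0.11 with fracture and passed (adjusted p = 0.0145), and the call without fracture was lost without repopulated library 1 of that group (adjusted p = 0.0917).

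In females Tnfaip3 had 37.3, 106 and 176 CPM in repopulated libraries without fracture, against 33.4, 41.7, 128 and 112 CPM in resident ones. With fracture it had 162, 120, 123 and 126 CPM in repopulated libraries, against 95.2, 103, 108.5 and 76.7 CPM in resident ones. The groups overlapped without fracture, where both held libraries under 45 CPM and over 100, and did not overlap with fracture. The difference was 0.43 ± 0.51 without and 0.47 ± 0.47 with fracture (edgeR adjusted p = 0.773 and 0.788). Without the 3 low libraries the difference with fracture was 0.46 ± 0.16 (adjusted p = 0.159).

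Nfkbib and Nfkbie, the IkB beta (chr7:28758251-28767512, minus strand) and epsilon (chr17:45555703-45563169, plus strand) proteins, passed in no comparison. Nfkbie had 60.1 to 82.3 CPM in female repopulated and 59.5 to 72.9 CPM in female resident libraries, and 61 to 97.8 CPM in male repopulated and 58.8 to 80.6 CPM in male resident libraries. Its difference in the mean was 0.21 ± 0.08 in females and 0.22 ± 0.11 in males (edgeR adjusted p = 0.123 and 0.223). It passed without female repopulated library 3 without fracture (0.26 ± 0.07, edgeR adjusted p = 0.0322). Without male repopulated library 2 without fracture the male difference was 0.37 ± 0.11. Each was the lowest repopulated library of its table for Nfkbie, so these fits add no support. Nfkbib had 23 to 42.7 CPM in female repopulated and 29.9 to 46.5 CPM in female resident libraries, and 32.5 to 61.6 CPM in male repopulated and 31.9 to 55.8 CPM in male resident libraries. Its difference in the mean was -0.08 ± 0.12 in females and -0.00 ± 0.14 in males.

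Counted over the 10 genes, repopulated and resident libraries did not overlap for 2 genes in females without fracture, where 13.3% of all genes showed no overlap, and for 4 with fracture, where 11.9% did. In males there was no overlap for 7 genes without fracture, where 35.4% of all genes had none with groups of 2 and 3 libraries, and for 2 with fracture, where 3.58% did. The male fracture libraries carry numbers in 2 ranges, V64 to V69 and V99 to V110, and the labels do not say what the numbers stand for. With V64 to V79 alone, 3 against 3 with fracture, none of the 10 genes passed in the comparison with fracture, where 80 of all genes did, against 589 with all libraries, and Relb, Nfkbia and Nfkbiz had 0.52 ± 0.15, 0.40 ± 0.15 and 1.28 ± 0.32 (edgeR adjusted p = 0.143, 0.291 and 0.098). With V99 to V110 alone, 4 against 2, none of the 10 and 43 of all genes passed, and the differences were 0.24 ± 0.17, 0.43 ± 0.12 and 0.87 ± 0.22 (adjusted p = 0.741, 0.151 and 0.131). With the number range as a term in the fit all 3 remained called.

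Fracture itself moved none of the 10 genes past the test. Between fracture and no fracture 0 of 10 were called in female resident or repopulated microglia, where edgeR called 0% of all genes, and 0 of 10 in male resident or repopulated microglia, where it called 0.00833% in each. DESeq2 also called 0 of the 10 in all 4 comparisons. Over all genes it called 4 in female resident, 90 in female repopulated, 12 in male resident and 58 in male repopulated microglia. At an unadjusted p below 0.05 in edgeR there were 0 of the 10 in resident microglia, beside 659 of all genes in females and 511 in males. There was 1 in female repopulated microglia, beside 1410 of all 13377 genes. In male repopulated microglia there was 1, beside 995 of all 11999 genes, so 1 of 10 was close to the share of all genes in both. The gene in female repopulated microglia was Nfkb2, with a mean of 72.99 CPM with fracture and 92.98 CPM without (-0.35 ± 0.14, adjusted p = 0.427). The gene in male repopulated microglia was Relb, with 54.7 ± 3.1 CPM with fracture (SD, n = 7) and 77.7 ± 2.7 CPM without (SD, n = 2), a difference of -0.51 ± 0.14 (edgeR adjusted p = 0.331). The interaction asks whether the repopulation difference itself changed with fracture. By edgeR it was called for 0 of 10 genes in females (0% of all genes) and 0 of 10 in males (0.00833%). DESeq2 called 0 of the 10 as well, and 1 of all genes in females and 49 in males. At an unadjusted p below 0.05 in edgeR there were 0 of the 10 genes in females and 2 in males, beside 494 and 886 of all genes. These 2 were Relb (-0.64 ± 0.20, adjusted p = 0.418) and Tnfaip3 (-0.49 ± 0.23, adjusted p = 0.676), both chosen here after their values were seen.

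The repopulation difference was called for more of the 10 genes in males than in females, so the difference between the tables was tested itself in 1 joint fit over the transcripts listed in both. edgeR called 0 of 10 genes there, against 0.904% of all genes (0.181% higher and 0.723% lower in females). Of the 10 genes 1 had an unadjusted p below 0.05, as did 1170 of all 11617 genes. That gene was Rela, with a female minus male difference of 0.39 ± 0.10 (adjusted p = 0.0555). DESeq2 called Rela (adjusted p = 0.0222), and edgeR called it without female resident library 3 or repopulated library 3 without fracture, repopulated library 1 with fracture, or male resident library 2 or repopulated library 1 without fracture or repopulated library 5 with fracture (adjusted p 0.0338 to 0.0483). The differences for Nfkb2, Nfkbia, Nfkbie and Nfkbib lay between -0.05 and 0.09 with SEs of 0.14 to 0.19. Those for Relb (-0.37 ± 0.35), Nfkbiz (-0.36 ± 0.28) and Tnfaip3 (-0.22 ± 0.57) had wide errors. Sex and library method cannot be told apart.

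Other genes of the pathway were called in the same comparisons. Their lists were chosen with earlier results of these data known, so the shares below are a description and no independent test. Of 28 listed NF-kB target genes, such as chemokines and adhesion molecules, 17 rose and 0 fell in male repopulated microglia without fracture, where 4.7% of all genes rose and 2.72% fell. With fracture 12 rose and 1 fell, where 3.03% rose and 1.88% fell, and in the mean of both states 17 rose and 1 fell, where 7.14% rose and 5.68% fell. The median log2 fold change of the list in the mean was 1.01 in males, beside -0.02 over all genes. In females 0 of 28 were called without fracture by edgeR, with 7 at an unadjusted p below 0.05, beside 2041 of all 13377 genes. With fracture 2 rose, where 1.27% of all genes rose. In the mean 6 rose and 1 fell, where 4.43% of all genes rose and 4.09% fell. The median of the list in the mean was 0.44 in females.

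**Figure D4:**
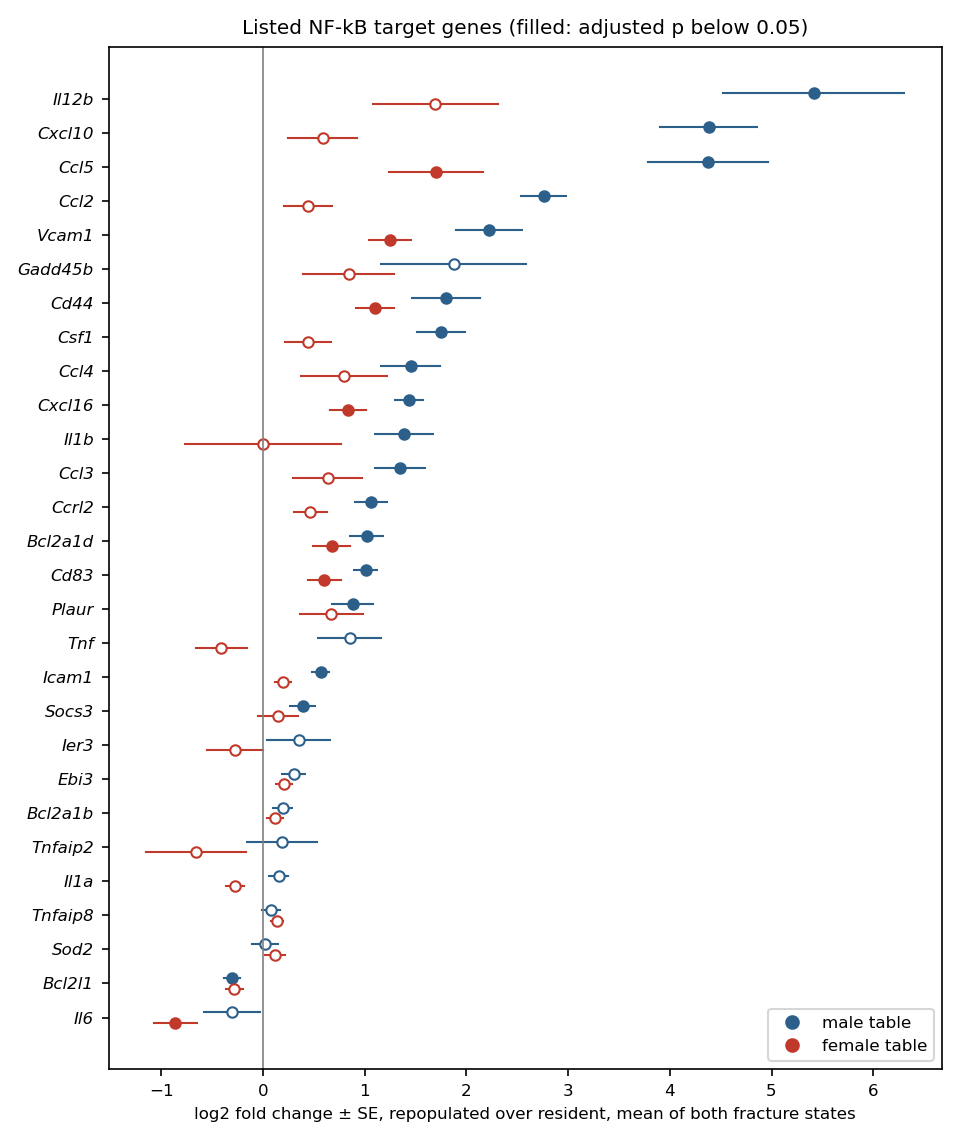
Log2 fold change with SE of repopulated over resident microglia in the mean of both fracture states for the 28 listed NF-kB target genes, males in blue and females in red; filled symbols have an adjusted p below 0.05. In males 17 genes are filled to the right of 0, with Il12b (at 0 in some resident libraries), Cxcl10, Ccl5 and Ccl2 farthest out, and in females 6 are.

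Cxcl10, a chemokine that attracts T cells, averaged 221 ± 17.4 CPM in male repopulated microglia without fracture (SD, n = 2) and 4.51 ± 3.46 CPM in resident ones (SD, n = 3), and it rose by 5.88 ± 0.81 (edgeR adjusted p = 0.000432). In females it averaged 190 ± 40.5 CPM in repopulated (SD, n = 3) and 155 ± 103 CPM in resident microglia (SD, n = 4) without fracture. The female resident libraries without fracture spread from 79.8 to 307 CPM and overlapped the repopulated ones, at 158 to 236 CPM. Ccl2, which attracts monocytes, averaged 109.4 ± 41.7 CPM in male repopulated and 10 ± 3.29 CPM in male resident microglia without fracture, and 52.1 ± 12.4 CPM in female repopulated and 42.5 ± 26 CPM in female resident microglia. In the joint fit 2 of the 28 targets had a lower repopulation difference in females than in males, Cxcl10 (-3.75 ± 0.58, adjusted p = 0.0024) and Ccl2 (-2.37 ± 0.35, adjusted p = 0.0012), and 0 a higher one. Ccl5 rose by 1.70 ± 0.46 in females (edgeR adjusted p = 0.0411) and by 4.38 ± 0.59 in males (adjusted p = 0.000154) in the mean of both states. Vcam1, an adhesion molecule, rose by 1.25 ± 0.21 in females (adjusted p = 0.00231) and by 2.22 ± 0.32 in males (adjusted p = 0.000177). Il6 was the target that fell in females, by 0.86 on the log2 scale (-0.86 ± 0.21, adjusted p = 0.0166), and Bcl2l1, a survival gene, the one that fell in males (-0.30 ± 0.08, adjusted p = 0.0115). Bcl2l1, and Vcam1 in males, were named after their values were seen.

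Among 20 listed receptors that feed the pathway, Tlr2, which senses bacterial lipoproteins, was higher in all repopulation comparisons of both tables. It averaged 754 ± 63.6 CPM in female repopulated and 487 ± 131 CPM in female resident microglia without fracture, and 1169 ± 87.4 CPM in male repopulated and 348 ± 18.8 CPM in male resident ones. Tlr2 rose in the mean by 0.73 ± 0.10 in females (edgeR adjusted p = 0.000632) and by 1.40 ± 0.10 in males (adjusted p = 1.7e-08), and the difference between the tables passed (-0.64 ± 0.15, adjusted p = 0.0334). Cd40, which drives the non-canonical branch, averaged 16.9 ± 3.17 CPM in male repopulated and 1.46 ± 0.45 CPM in male resident microglia without fracture and rose by 3.53 ± 0.82 (adjusted p = 0.00894). In females it averaged 13.4 ± 2.92 CPM in repopulated and 14.7 ± 5.67 CPM in resident microglia without fracture, and the difference between the tables in the mean was -2.63 ± 0.60 (edgeR adjusted p = 0.029). In the mean 1 of 20 receptors rose and 1 fell in females, close to the 4.43% and 4.09% of all genes that did, and 4 rose and 3 fell in males, where 7.14% and 5.68% of all genes did. Tlr5, the flagellin receptor, was the one that fell in females (-1.48 ± 0.42, adjusted p = 0.0385), and it also fell in males (-2.29 ± 0.68, adjusted p = 0.0294).

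Of 26 listed kinases, adaptors and ubiquitin ligases around the receptors 1 rose in the mean in each table and 0 fell, a share no higher than the 4.43% of all genes that rose in females and the 7.14% that rose in males. It was Traf3, which restrains the non-canonical branch, in females (0.42 ± 0.12, adjusted p = 0.0332) and Rbck1, a subunit of the linear ubiquitin ligase, in males (0.35 ± 0.09, edgeR adjusted p = 0.0126). Of a further list of regulators of the pathway, 2 of 23 rose in the mean in females and 0 fell, where 4.43% of all genes rose. They were Sigirr (1.41 ± 0.38, edgeR adjusted p = 0.0298) and Birc3 (0.34 ± 0.08, adjusted p = 0.0194). In males 4 of 21 rose and 0 fell, where 7.14% of all genes rose, namely Nlrc5 (1.51 ± 0.39, adjusted p = 0.0116), Bcl3 (0.86 ± 0.28, adjusted p = 0.0425), Tnip1 (0.51 ± 0.15, adjusted p = 0.0297) and Birc3 (0.45 ± 0.11, edgeR adjusted p = 0.00712). Of 21 immediate-early genes linked to dissociation 0 rose in the mean in either table. Btg2 fell in females, where 4.09% of all genes fell, and Klf2 and Jund in males, where 5.68% did.

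Per kilobase of transcript, a scale on which genes can be compared, Nfkbia was the most abundant of the 10 in both tables. It averaged 151 ± 33.7 CPM per kilobase over the 15 female libraries and 162 ± 31 over the 17 male ones (SD over all groups). These levels sum all transcript models of a gene. Of the Nfkb1 counts only 16.7% in females and 46.3% in males lay on protein-coding models. The place of Nfkb1 in these orders is therefore not that of its protein-coding RNA. In females Nfkb1 (50.3 ± 8.57) and Rela (36.8 ± 3.65) followed, then Nfkbib (28.3 ± 4.55) and Nfkbie (27.4 ± 3.09), Tnfaip3 (23 ± 9.29) and Nfkb2 (20.3 ± 5.51), Rel (15.6 ± 1.69), Relb (14.2 ± 6.26) and Nfkbiz (10.2 ± 3.62). In males the order was Rela (70.9 ± 9.68), Nfkb1 (62.7 ± 8.89), Nfkbib (36 ± 6.04), Nfkbie (30 ± 4.5), Relb (22.7 ± 5.97), Nfkb2 (18.6 ± 4.72), Tnfaip3 (18 ± 4.53), Nfkbiz (6.2 ± 2.61) and Rel (5.54 ± 0.911). Over all groups pooled, neighbours in these orders differed by more than the larger of their SDs below Nfkbia in both tables, from Nfkb1 to Rela and from Rela to Nfkbib in females, and from Nfkb1 to Nfkbib, Nfkbie to Relb and Tnfaip3 to Nfkbiz in males. The step from Nfkbib to Nfkbie in males was about 1 SD, and the other neighbours lay closer than that. Within single groups close genes changed places: in male repopulated libraries without fracture Relb, at 34.8 ± 1.08 CPM per kilobase, lay above Nfkbie, at 32.2 ± 10.2 (SD, n = 2). The tables were made and normalised separately, so levels are not compared across them.

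A large part of the Nfkb1 count lay on transcript models that are not protein-coding. Over all female libraries 73.8% of its estimated counts were assigned to 4 retained-intron models and 16.7% to protein-coding ones, and in males the shares were 35.2% and 46.3%. Retained-intron models also took 19.7% of Nfkbia, 19.6% of Nfkbie and 15.8% of Relb counts in females, against 9.31%, 6.08% and 1.99% in males. For Nfkb2, Rel, Nfkbib and Nfkbiz all counts lay on protein-coding models in both tables. Shares of Nfkb1 on retained-intron models were alike between repopulated and resident groups, at 72.7% ± 3.3 and 74% ± 3.8 in females without fracture (SD, n = 3 and 4). With counts of protein-coding models alone the number of the 10 genes called was the same in each comparison within a table, for example 3 in females and 7 in males in the mean.

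**Figure D5:**
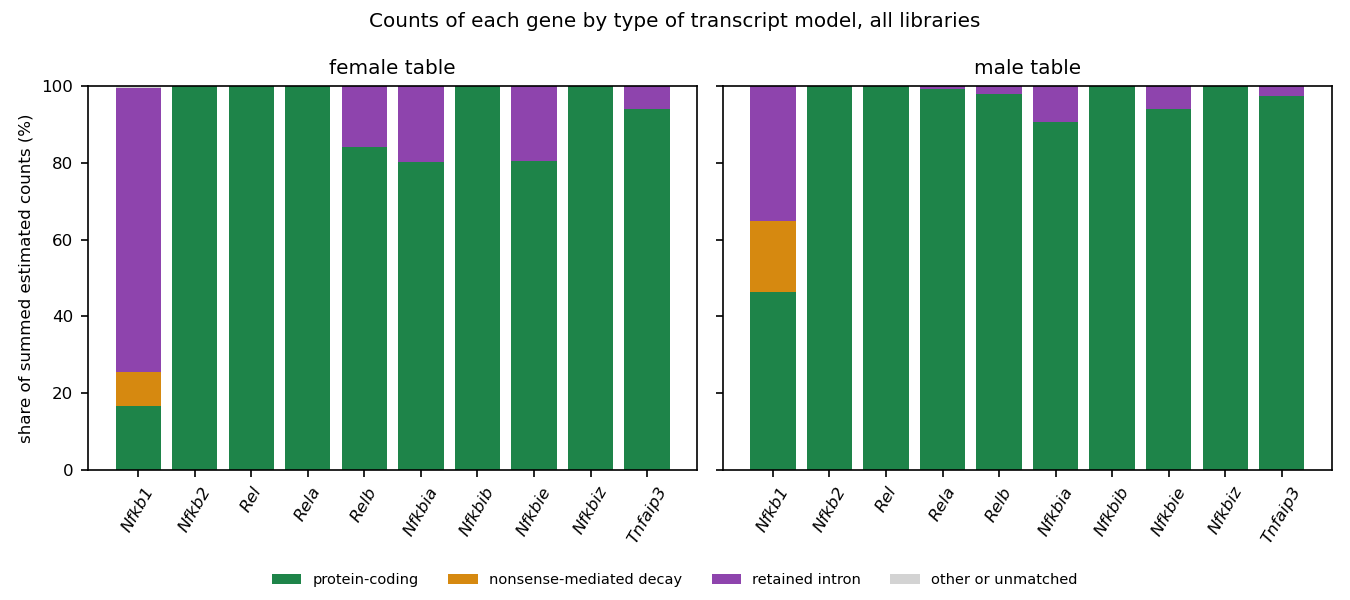
Share of the estimated counts of each gene assigned to protein-coding, nonsense-mediated decay, retained-intron and other transcript models, in percent over all libraries of the female (left) and male table (right). Nfkb1 stands out with 73.8% on retained-intron models in females and 35.2% in males.

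The genes whose levels followed Nfkb2 most closely over the 15 female libraries were Npc2, Cd72, Psme1, H2-K2 and Ctss (Pearson r of log2 CPM 0.969 to 0.953, among 9185 genes ranked), and over the 17 male libraries Il1rn, Mybph, Galnt7, Evi2b and Bcl3 (0.86 to 0.849, among 8989). For Nfkbia they were Apobec3, Rogdi, Dhx9, Hmox1 and Rpl15 in females (0.924 to 0.898) and Cox7a2l, Cd52, Xlr, Socs1 and Rab20 in males (0.912 to 0.89). The libraries share the contrast of repopulated and resident microglia, which enters these values, and they are given as a description. H2-K2 and Xlr belong to families of near-identical genes whose reads may be split.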

How the data were processed

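The authors deposited a table of female and a table of male libraries that hold whole-number estimated counts for each transcript. STAR 2.7.6a, RSEM 1.3.1, Trim Galore 0.6.7 and DESeq2 1.34.0 with build GRCm38 are named in the submitters' processing notes, without their roles. A transcript is listed where no fewer than 8 of 15 female or 9 of 17 male libraries reach 10 counts. Counts were summed per gene, and 98.42% of transcripts in each table matched GENCODE vM21, which gave types and lengths. A further deposited column of each table, equal to the mean absolute deviation of the row, was not used.

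Each table was fitted as 4 groups with edgeR 4.0.16 (TMM, filterByExpr, which removed no gene, robust quasi-likelihood F test) in R 4.3.3, tested on simulated data, with DESeq2 1.42.0 as an alternative. P-values were adjusted over all genes by Benjamini-Hochberg, and genes under 0.05 were called. Each SE is the log2 fold change over the square root of F. The members and lists were chosen with earlier results of these data known. Named genes outside the 10 are the called members of each list, up to 4 by size of change, and the 5 genes most correlated with Nfkb2 and Nfkbia with a mean of at least 5 CPM. No pair of libraries in a group agreed within sampling noise (lowest chi-square per degree of freedom 11.2 over 56 pairs).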

Additional observations from a re-analysis of the deposited data

Results flagged for a closer look

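In 5 of the 50 combinations of gene and group with 4 to 7 libraries, 1 library lay far from the rest of its group by Dixon's test at the 95% level, where chance alone gives about 1 in 20. Nfkb1 accounts for 3 of them. It had 183.9 CPM in female resident library 2 without fracture, against 112.2 to 117.9 CPM in the other libraries of the group, 197.6 CPM in male repopulated fracture library 5, against 124.7 to 141.6 CPM, and 153.4 CPM in male resident fracture library 1, against 161.9 to 164.2 CPM. Nfkbia had 155.2 CPM in female repopulated fracture library 3, against 226 to 238.4 CPM. Tnfaip3 had 162.1 CPM in female repopulated fracture library 1, against 120.4 to 126.5 CPM.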

How the results depend on the processing

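Over all results of single genes and all alternatives 87 calls were lost and 25 gained, and no called gene changed sign. Leaving out 1 library at a time gave 0 to 2 genes in females without fracture, 0 to 1 with fracture and 2 to 3 in the mean, 3 to 7, 2 to 5 and 6 to 7 in males, 0 to 1 for the female minus male difference and 0 elsewhere. Without fracture in females the count was 1 with library totals, 1 with the replicate block, 0 with only the 2 groups in the fit and 0 without the 3 libraries that stood apart, but those 2 fits called 0 and 1 of all genes, against 338. With fracture in females it was 0 with library totals, 0 with the block, 2 with only the 2 groups and 2 without the 3 libraries. In the mean in females it was 2 with library totals and 2 with the block, against 3. In males it was 2 without fracture with only the 2 groups, and with fracture 1 with the block, 0 with V64 to V79 alone and 0 with V99 to V110 alone, where 293, 80 and 43 of all genes were called, against 589. Without fracture in males 2 genes were called higher with only the 2 groups, 3 with library totals and 3 with the block, against 4. Relb was among them each time, so Nfkb2, Nfkbiz and Tnfaip3 did not all keep their call. For the female minus male difference DESeq2 gave 1. The causes of these shifts were not tested; the smaller fits hold fewer libraries. In females the values do not settle whether replicate numbers pair the libraries. The deviations of same-numbered female libraries had a median correlation of -0.03 and a highest one of 0.44, with 4 of 21 pairs above 0.1. Differently numbered ones had a median of 0.023 and a highest one of 0.55, with 15 of 63 above 0.1. Between repopulated and resident females the same-numbered pairs had 0.44, 0.079 and 0.3 without fracture. With fracture they had 0.17, -0.03, -0.092 and 0.26. Same-numbered male libraries had a median of -0.01 and a highest one of 0.091. Over all genes the counts with the block were 143 and 184 in females without and with fracture, against 338 and 315 without it. Leaving out the 3 female libraries, the V99 to V110 fit and protein-coding models alone were chosen after seeing the data.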
